A study of Mus musculus with 6 samples.

Results

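A set of 10 genes that make serine, interconvert it with glycine and carry its carbon into the folate and methionine cycles was followed in the cisplatin-injured mouse kidney. They were taken by symbol from the counted genes, 10 of 56691: Phgdh, Psat1, Psph, Shmt1, Shmt2, Mthfd1, Mthfd2, Gldc, Amt and Bhmt. Kidneys of 3 control mice, which received saline, and of 3 mice given 4 intraperitoneal injections of cisplatin at 8 mg/kg were compared by total RNA-seq at the end of week 7. All were C57BL/6 males, aged 9 weeks when dosing began, and cisplatin is a platinum drug of cancer chemotherapy that injures the tubules. Repeated dosing of this kind models chronic kidney disease after chemotherapy, and the RNA is that of the whole organ, not of a sorted cell type.

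Serine is made from a glycolytic intermediate in 3 steps, by Phgdh, Psat1 and Psph in turn, and the kidney is known as an organ that makes serine and releases it into blood. Serine hydroxymethyltransferases (Shmt1 in the cytosol, Shmt2 in mitochondria) split serine into glycine and a carbon unit on folate, and the Mthfd enzymes pass that unit between oxidation states. Mitochondria also break glycine down through the glycine cleavage system, of which Gldc and Amt are subunits, and Bhmt uses betaine to turn homocysteine back into methionine.

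Each library held 21891855 to 26627554 read pairs counted on genes. CPM here are counts scaled to the same library size, with sizes corrected by TMM factors (trimmed mean of M-values), and the log2 fold changes compare cisplatin with control in a fit over all 15662 genes that passed the low-count filter, all 10 members among them. A gene was called lower or higher when its p-value, from edgeR's quasi-likelihood F test with Benjamini-Hochberg adjustment over all tested genes, was under 0.05. Of the tested genes, 22.8% were called lower and 24.5% higher, and the median log2 fold change was 0.05. The cisplatin libraries all lay below the control libraries in 27.6% of them and all above in 30.2%. The study describes the libraries of a group as biological replicates. The p-values set the difference between groups against the spread within groups, in an estimate that also draws on the other tested genes.

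Cell type markers moved as well, and their part in the results below was not tested. Their calls stand beside 22.8% lower and 24.5% higher among all tested genes. Of 20 proximal tubule markers, 17 were called lower and none higher, with a median log2 fold change of -0.96. Their summed level was 41316 to 41739 CPM in control and 9421 to 10676 CPM in cisplatin libraries, of which Kap, an androgen-regulated tubule gene, gave 21207 and 280 CPM on average. Slc17a3, Ggt1 and Slc22a6 fell by 3.46, 2.03 and 2.14 on the log2 scale. Of 8 macrophage markers 7 were called higher (Lyz2, C1qb, C1qa and C1qc among them; summed level 88.0 to 109 against 268 to 323 CPM), and of 6 fibroblast markers 5 (Dcn, Pdgfra, Col3a1 and Col1a1 among them; 203 to 250 against 399 to 664 CPM). In bulk tissue, fewer cells of a type and less RNA per cell cannot be told apart.

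The members did not move together. Of the 10, 4 were called lower (Shmt2, Amt, Mthfd1 and Psat1), 4 higher (Phgdh, Bhmt, Gldc and Psph) and 2 neither way (Shmt1 and Mthfd2). These counts stand beside 22.8% lower and 24.5% higher among all tested genes. In the 4 called lower, all cisplatin libraries lay below all control libraries, while only Phgdh and Gldc had all of them above, and the other 4 overlapped. Among all tested genes, the cisplatin libraries all lay below in 27.6% and all above in 30.2%. With library totals as the only scaling, 3 were called lower and 6 higher. The median log2 fold change of the 10 was 0.22, with a range from -1.37 to 1.65. Their summed level was 445 to 497 CPM in control and 395 to 433 CPM in cisplatin libraries.

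**Figure D1:**
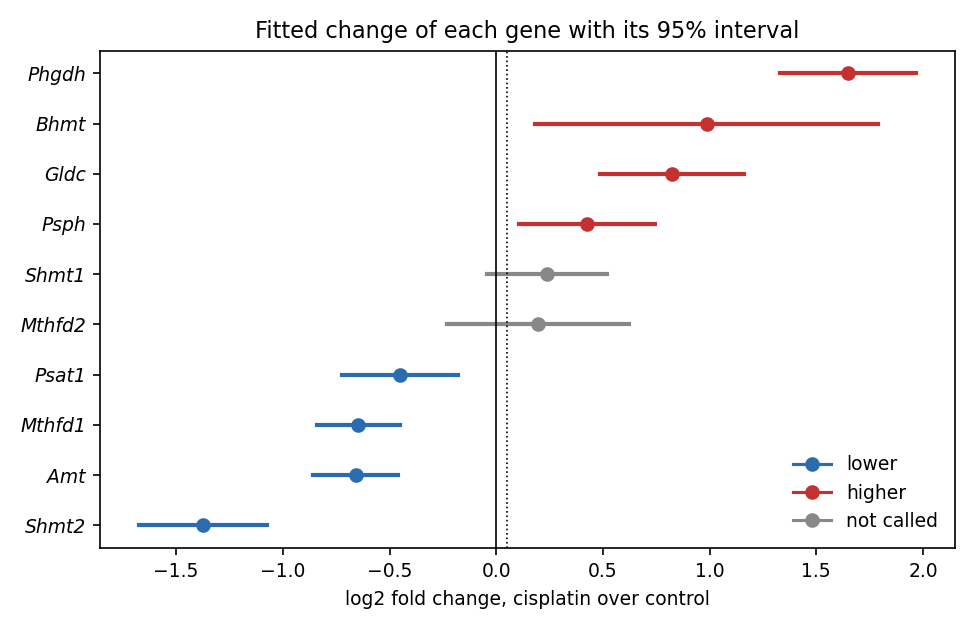
Fitted log2 fold change (cisplatin over control, 3 libraries each) of the 10 genes with its 95% interval, coloured by the call. The dotted line is the tested genes' median, 0.05. Phgdh stands at the upper end at 1.65 and Shmt2 at the lower end at -1.37, and the intervals of Shmt1 and Mthfd2 include 0.

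Among the serine synthesis genes, Phgdh rose 3.13-fold, Psph rose less and Psat1 fell. Phgdh (chr3:98220484-98255047, GRCm39, minus strand) encodes phosphoglycerate dehydrogenase, which commits 3-phosphoglycerate to serine. Its level was 5.0, 5.65 and 5.34 CPM in control libraries 1 to 3 and 16.1, 19.9 and 14.0 CPM in cisplatin libraries 1 to 3. The lowest cisplatin library thus stood well above the highest control library. The log2 fold change was 1.65 (SE 0.144, 95% interval 1.33 to 1.97, adjusted p = 8.1e-06, edgeR), and 586 of the tested genes had a larger one.

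Psat1 (chr19:15882039-15924701, minus strand), the aminotransferase of the second step, ran the other way. It was at 23.9, 24.5 and 27.3 CPM in control and 17.7, 15.9 and 21.9 CPM in cisplatin libraries, with no overlap. The log2 fold change was -0.45 (SE 0.123, 95% interval -0.72 to -0.18, adjusted p = 0.0113, edgeR). This call was lost without control library 3 (-0.40, adjusted p = 0.0524) and without cisplatin library 2 (-0.35, adjusted p = 0.0508).

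Psph (chr5:129841925-129864513, minus strand), the phosphatase that releases serine, was at 8.20, 8.33 and 9.95 CPM in control and 9.68, 12.3 and 13.7 CPM in cisplatin libraries. Cisplatin library 1 lay below control library 3, so the groups overlapped. The log2 fold change was 0.43 (SE 0.144, 95% interval 0.11 to 0.75, adjusted p = 0.0316, edgeR). Leaving out control library 1 or 2 or cisplatin library 2 or 3 ended the call, with log2 fold changes of 0.37, 0.38, 0.40 and 0.29 and adjusted p = 0.114, 0.109, 0.0960 and 0.104, and DESeq2 did not call it (0.39, adjusted p = 0.0855). Up to 61.9% of the stranded pairs over Psph lay on the opposite strand. Counts that ignore the strand gave 0.43 as well, and the part of the opposite-strand pairs in the change was not tested.

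**Figure D2:**
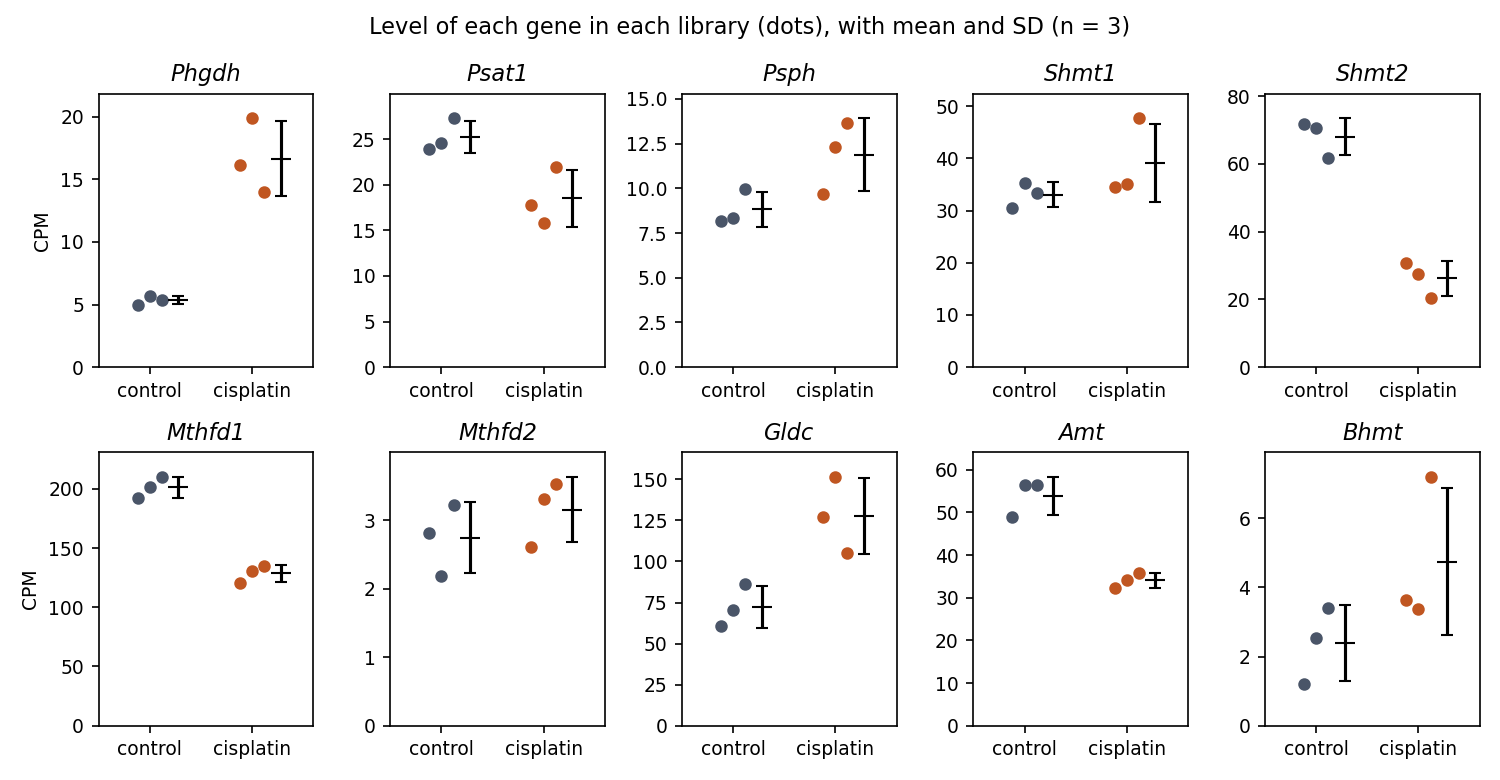
Level in CPM of each gene in every library (dots, in the order of libraries 1 to 3), with the mean and SD of the 3 libraries of a group beside them. Each panel starts at 0 and has its own scale. Phgdh and Gldc stand apart upward and Shmt2, Mthfd1, Amt and Psat1 downward, while the dots of Psph, Shmt1, Mthfd2 and Bhmt overlap between the groups.

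Of the serine hydroxymethyltransferases, the mitochondrial gene fell and the cytosolic gene was not called. Shmt2 (chr10:127352266-127358323, minus strand) was at 71.8, 70.5 and 61.8 CPM in control and 30.6, 27.5 and 20.5 CPM in cisplatin libraries. The highest cisplatin library did not reach the lowest control library. The level was 2.59-fold lower (log2 fold change -1.37, SE 0.136, 95% interval -1.67 to -1.07, adjusted p = 1.8e-05, edgeR), and 493 tested genes had a smaller log2 fold change. Shmt1 (chr11:60661185-60708167, minus strand) was at 30.5, 35.3 and 33.4 CPM in control and 34.5, 35.1 and 47.7 CPM in cisplatin libraries, where only cisplatin library 3 stood above all control libraries. Its log2 fold change was 0.24 (SE 0.127, 95% interval -0.04 to 0.52, adjusted p = 0.146, edgeR). Part of Shmt1 is shared on the same strand with Top3a, which had at most 176 counts in a library.

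The ratio of Shmt2 to Shmt1 counts within a library does not depend on the scaling between libraries. Its log2 value was 1.23, 1.0 and 0.89 in control and -0.17, -0.35 and -1.22 in cisplatin libraries. The groups did not overlap, and cisplatin library 3 was the lowest. The difference was -1.62, a 3.08-fold fall of the ratio, with an exact two-sided permutation p = 0.1, the smallest that 3 against 3 libraries allow. In all, 3 ratios were tested in this way, each with the same exact permutation p = 0.1 (0.1 after Benjamini-Hochberg adjustment).

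The bases just upstream of Shmt2 hold a motif that few promoters have, and are shown because Shmt2 is the member that fell most. In the 250 bases before the start of its canonical transcript (chr10:127358322-127358571, GRCm39, minus strand), capitals mark CGCATGCG, the palindromic core of the site of nuclear respiratory factor 1, which controls many nuclear genes for mitochondrial proteins.
Shmt2: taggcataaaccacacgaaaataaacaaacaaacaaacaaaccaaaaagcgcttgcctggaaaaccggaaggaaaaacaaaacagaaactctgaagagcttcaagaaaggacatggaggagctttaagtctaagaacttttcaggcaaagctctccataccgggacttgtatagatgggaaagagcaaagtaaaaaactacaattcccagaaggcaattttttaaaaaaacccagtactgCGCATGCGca
The match begins 10 bases before the start. It is in 1 of the 10 members and in 2.59% of the 21770 promoters searched from 250 bases before to 50 bases after the start. This motif was picked after the sequence had been read. TGATGNAA, the C/EBP-ATF element that the stress factor Atf4 can bind, was searched on both strands and matched none of the 10, against 3.84% of all promoters, and its form TGATGCAA matched none, against 0.99%. These letters were looked for in this window only.

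Of the Mthfd genes, the cytosolic Mthfd1 fell and the mitochondrial Mthfd2 was not called. Mthfd1 (chr12:76301984-76366588, plus strand) encodes a 3-activity enzyme of the cytosol that interconverts formyl, methenyl and methylene folate. It was at 193, 202 and 210 CPM in control and 121, 130 and 135 CPM in cisplatin libraries, with a wide gap between the groups. The log2 fold change was -0.65 (SE 0.0880, 95% interval -0.84 to -0.45, adjusted p = 1.6e-04, edgeR). Mthfd2 (chr6:83282673-83302890, minus strand), known as the form of embryonic and dividing cells, was at 2.82, 2.19 and 3.22 CPM in control and 2.62, 3.32 and 3.53 CPM in cisplatin libraries. The groups overlapped, at 45 to 99 counts a library. Its log2 fold change was 0.20 (SE 0.192, 95% interval -0.23 to 0.62, adjusted p = 0.425, edgeR), an interval from 0.853-fold to 1.54-fold, and no change was detected. The log2 ratio of Mthfd2 to Mthfd1 counts went from -6.10, -6.52 and -6.03 to -5.53, -5.30 and -5.25, a difference of 0.86 (1.81-fold) with no overlap (exact permutation p = 0.1, two-sided).

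Mthfd2 is known to be high in cycling cells. Of 8 markers of such cells 7 were tested and 3 were called higher (Rrm2, Cdk1 and Top2a, with log2 fold changes of 0.88, 1.04 and 0.53). The other 4 were called neither way, Mki67 among them (0.18, adjusted p = 0.478, edgeR). Of all tested genes 24.5% were called higher. The summed level of the 8 markers was 14.2 to 15.6 CPM in control and 17.2 to 26.8 CPM in cisplatin libraries.

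The mitochondrial partners Mthfd1l, Aldh1l2 and Mthfd2l rose from low levels. Not all mitochondrial genes of the folate cycle list did, since Mtfmt fell (-0.68, adjusted p = 9.1e-04, edgeR). Mthfd1l, the mitochondrial enzyme that releases formate, was at 1.35, 1.12 and 1.06 CPM in control and 5.72, 7.44 and 4.49 CPM in cisplatin libraries. It had the highest log2 fold change of the 14 folate cycle genes, 2.32 (SE 0.226, adjusted p = 1.6e-05, edgeR). Aldh1l2, the mitochondrial enzyme that oxidises formyl folate to carbon dioxide, went from 1.51, 1.80 and 1.68 CPM to 5.30, 6.37 and 4.89 CPM (log2 fold change 1.73, adjusted p = 1.7e-05, edgeR). Both separated fully between the groups. Its cytosolic counterpart Aldh1l1 fell from 345, 350 and 332 CPM to 245, 262 and 248 CPM (log2 fold change -0.44, adjusted p = 0.00183, edgeR). Mthfd2l, a second mitochondrial dehydrogenase, rose by 0.67 (adjusted p = 0.00214, edgeR).

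Set against their cytosolic counterparts, the log2 ratio of Mthfd1l to Mthfd1 counts rose by 2.95 (7.72-fold) and that of Aldh1l2 to Aldh1l1 by 2.17 (4.49-fold). No library of either group overlapped with the other group. These ratios were chosen after their values were seen and carry no test. By contrast Shmt2, the mitochondrial enzyme that feeds them, fell.

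**Figure D3:**
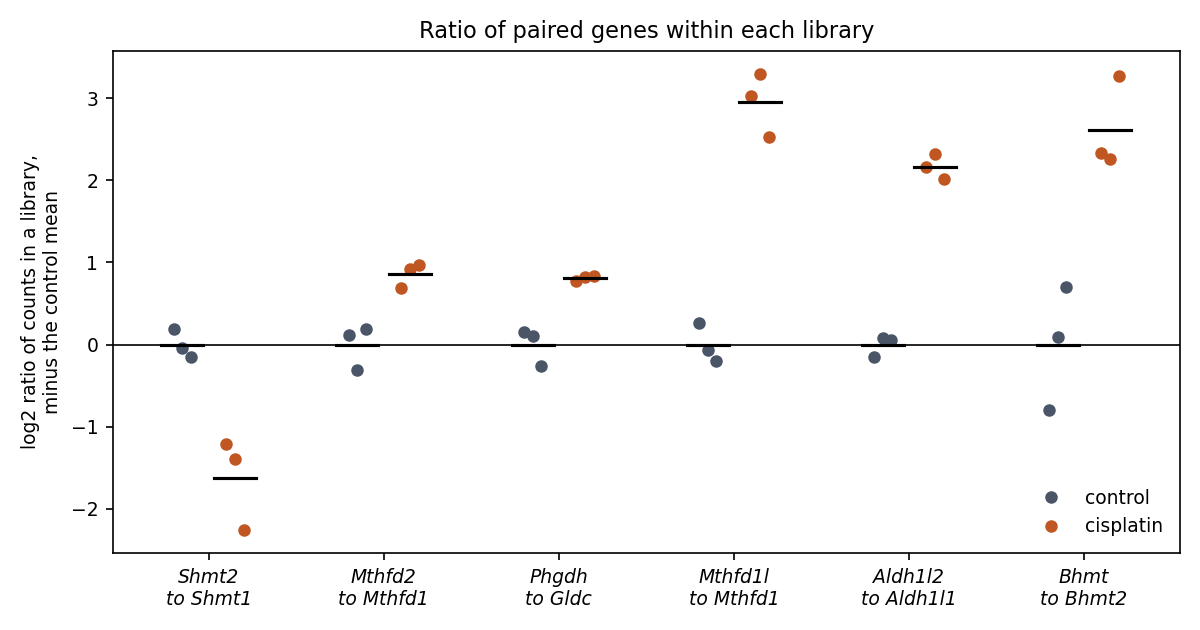
Log2 ratio of counts of gene pairs within a library, minus the mean of the control libraries (dots for libraries 1 to 3, bars for the group means). The ratio of Shmt2 to Shmt1 stands lower in cisplatin libraries by 1.62, and the other 5 stand higher, by 0.81 to 2.95.

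In the glycine cleavage system, the glycine decarboxylase Gldc rose while the other subunits fell. Gldc (chr19:30071975-30152871, minus strand), which takes the carboxyl group off glycine, was at 60.5, 70.4 and 86.0 CPM in control and 127, 152 and 105 CPM in cisplatin libraries. Every cisplatin library was above every control library, though each group spread widely. The log2 fold change was 0.82 (SE 0.152, 95% interval 0.49 to 1.16, adjusted p = 0.00124, edgeR), a 1.77-fold rise. Amt (chr9:108173865-108179501, plus strand), the aminomethyltransferase that hands the remaining carbon to folate, was at 48.8, 56.5 and 56.4 CPM in control and 32.3, 34.2 and 35.9 CPM in cisplatin libraries. It separated fully in the other direction, with a log2 fold change of -0.66 (SE 0.0905, 95% interval -0.86 to -0.46, adjusted p = 1.7e-04, edgeR).

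The subunits outside the 10 went with Amt. Gcsh, the lipoyl carrier protein between the enzymes, went from 83.7, 92.3 and 93.3 CPM to 43.4, 52.1 and 61.5 CPM (log2 fold change -0.78, adjusted p = 4.0e-04, edgeR). Dld, the dihydrolipoyl dehydrogenase shared with the pyruvate and branched-chain ketoacid dehydrogenases, went from 213, 210 and 216 CPM to 101, 102 and 111 CPM (-1.03, adjusted p = 5.5e-06, edgeR). Of the 4 subunits, then, Gldc was higher and Amt, Gcsh and Dld were lower, each with no overlap between groups. The log2 ratio of Phgdh to Gldc counts was -3.60, -3.64 and -4.01 in control and -2.98, -2.93 and -2.91 in cisplatin libraries, a difference of 0.81 (1.75-fold, exact two-sided permutation p = 0.1).

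Bhmt and its neighbour in function Bhmt2 moved in opposite directions. Bhmt (chr13:93753183-93774469, minus strand), betaine-homocysteine methyltransferase, is mainly known from liver and was the lowest of the 10 per kilobase here, at 29, 52 and 71 counts in control and 106, 101 and 165 counts in cisplatin libraries. That is 1.22, 2.53 and 3.41 CPM against 3.65, 3.38 and 7.20 CPM. Cisplatin library 2 lay just below control library 3, and cisplatin library 3 stood apart from the other two. The log2 fold change was 0.99 (SE 0.363, 95% interval 0.18 to 1.79, adjusted p = 0.0451, edgeR). Without control library 1, control library 2 or cisplatin library 3 the call was lost (0.65, 1.03 and 0.54, adjusted p = 0.15, 0.0878 and 0.152). The pseudogenes Bhmt-ps1 and Phgdh-ps1 had at most 1 count in a library.

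Bhmt2, which uses S-methylmethionine as methyl donor, had more even libraries than Bhmt. It was at 67.1, 75.6 and 66.9 CPM in control and 23.1, 22.6 and 23.9 CPM in cisplatin libraries (log2 fold change -1.59, SE 0.0866, adjusted p = 3.0e-07, edgeR). The ratio of Bhmt to Bhmt2 counts rose 6.13-fold, again chosen after its value was seen and given with no test. Of 8 liver markers 5 were tested, since Apoa1, Ahsg and Cps1 had too few counts, and the summed level of the list was 244 to 288 CPM in control and 36.2 to 53.4 CPM in cisplatin libraries. Ttr alone gave 255 and 22.3 CPM of it on average. Ttr fell by 3.52 and Alb by 1.55 on the log2 scale, and Fgb rose by 2.39. The other 2 tested, Apoc3 and Serpina1a, were called neither way, and the median log2 fold change of the list was 0.04.

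Per kilobase of merged exons, which allows levels of different genes to be compared, Mthfd1 was the most abundant of the 10 in control kidney at 41.0 ± 1.79 CPM per kb (SD, n = 3). Amt (20.5 ± 1.68), Shmt2 (16.6 ± 1.32), Gldc (7.21 ± 1.28), Shmt1 (5.11 ± 0.372), Psat1 (4.29 ± 0.302), Phgdh (1.89 ± 0.114), Psph (1.20 ± 0.133), Mthfd2 (0.749 ± 0.142) and Bhmt (0.396 ± 0.183) followed in that order, all in CPM per kb. No neighbours in this order overlapped in their libraries. With the length of the longest transcript in place of merged exons, Psat1 (8.41 to 9.59 CPM per kb) and Shmt1 (7.33 to 8.48 CPM per kb) changed places and overlapped. By that length Gldc (7.87 to 11.2 CPM per kb) overlapped with both, and Amt (21.3 to 24.7 CPM per kb) with Shmt2 (20.9 to 24.3 CPM per kb), so the order within these genes depended on the length used.

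In the cisplatin-treated kidney Mthfd1 was still the highest, at 26.2 ± 1.42 CPM per kb (SD, n = 3). Gldc had come level with Amt (12.7 ± 2.32 and 13.0 ± 0.672 CPM per kb), their libraries overlapping. Phgdh (5.89 ± 1.06 CPM per kb) had passed Psat1 (3.14 ± 0.526 CPM per kb) with no overlap and now overlapped with Shmt1 (6.04 ± 1.15 CPM per kb) and Shmt2 (6.38 ± 1.27 CPM per kb). Psph stood at 1.62 ± 0.276, Mthfd2 at 0.862 ± 0.131 and Bhmt at 0.786 ± 0.353 CPM per kb, the last pair overlapping. With the longest transcript Gldc stood above Amt and Shmt1 above Shmt2, again overlapping, and Phgdh (7.15 to 10.2 CPM per kb) overlapped with Psat1 (5.57 to 7.70 CPM per kb) as well.

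Other genes of the pathway were followed in 5 lists, whose calls stand beside 22.8% lower and 24.5% higher among all tested genes. Most tested genes of the serine and glycine use list were lower. The list also holds genes of adjoining steps, such as Grhpr and Glyctk, that do not use serine or glycine themselves. Of its 19 genes 16 were tested, and 13 were called lower, none higher and 3 neither way (8 lower and 2 higher with library totals). Their median log2 fold change was -0.72, against 0.05 for all tested genes. The sharpest calls, besides Dld, were Grhpr and Glyctk, which act on glyoxylate, hydroxypyruvate and glycerate (-1.10 and -1.38, adjusted p = 5.8e-06 for both, edgeR), and Glyat, which conjugates acyl groups to glycine (-1.30, adjusted p = 8.8e-06, edgeR). The 13 called lower had all cisplatin libraries below all control libraries, as did 27.6% of all tested genes. Sds and Tdh, which break down serine and threonine, had no count in any library, and Agxt had too few to be tested.

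The 14 folate cycle genes were split, with 7 called lower, 4 higher and 3 neither way, but 1 lower and 6 higher with library totals and 5 each way with upper-quartile factors. Without control library 2 or control library 3, 4 were called lower. The median log2 fold change was -0.23. Mtfmt, which formylates the mitochondrial initiator tRNA, fell by 0.68. Beside Mthfd1l, Aldh1l2 and Mthfd2l, the only other gene called higher was Ggh, a lysosomal enzyme that trims the glutamate tail of folates (0.46, adjusted p = 0.00411, edgeR).

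Of 19 methionine and choline cycle genes 18 were tested, 12 called lower, 1 higher and 5 neither way (9 lower and 2 higher with library totals), and the median log2 fold change was -0.67. Next to Bhmt2, Cbs, which joins serine to homocysteine at the entry to transsulfuration, fell from 119, 124 and 119 CPM to 37.5, 45.3 and 36.5 CPM (-1.60, adjusted p = 7.6e-07, edgeR). Ahcyl2, a relative of the enzyme that cleaves S-adenosylhomocysteine, fell by 1.28, and Chdh, which makes betaine from choline, fell by 0.95. Only Mtap, of the methionine salvage route, was called higher (0.25, adjusted p = 0.0431, edgeR), and no gene of the list was when control library 1, 2 or 3 or cisplatin library 2 or 3 was left out, or with DESeq2. Mat1a, the liver form of methionine adenosyltransferase, had too few counts to be tested.

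Of 19 transporters of serine, glycine, folate and betaine, 11 were called lower, 3 higher and 5 neither way (6 lower and 5 higher with library totals). Without control library 3 only 1 was called higher. The median log2 fold change was -0.30. Slc6a20b, an imino acid carrier of the brush border, fell by 1.74 (167, 160 and 156 CPM to 46.8, 43.9 and 53.9 CPM). The folate carrier Slc46a1 fell by 1.07, the folate receptor Folr1 by 1.10, and Sfxn1, the mitochondrial serine carrier, by 0.68 (adjusted p = 3.6e-04, edgeR). The 3 called higher were its relative Sfxn3 (1.03), the neutral amino acid carrier Slc1a5 (0.56) and the betaine carrier Slc6a12 (0.76). Sfxn3 went from 3.87, 4.04 and 5.10 CPM to 10.7, 8.08 and 7.59 CPM.

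Phgdh, Psat1, Psph, Shmt2 and Mthfd2 are known targets of Atf4, the transcription factor of the integrated stress response, so the genes of that pathway were listed too. Of 14, 13 were tested (Chac1 had too few counts), 1 was called lower, 5 higher and 7 neither way (none lower and 11 higher with library totals). These counts stand beside 22.8% lower and 24.5% higher among all tested genes. The 5 called higher became 2 without control library 1 or cisplatin library 2 and 3 without control library 2 or with DESeq2. The median log2 fold change was 0.29. Atf4 itself was not called (0.12, SE 0.0855, adjusted p = 0.284, edgeR), which says nothing of its protein, set largely by translation. Atf3 rose by 1.88 (0.71, 1.02 and 0.67 CPM to 2.93, 3.05 and 2.88 CPM). Sesn2, Ppp1r15a and the kinase Eif2ak2 rose by 0.61, 0.44 and 0.29, and the kinase Eif2ak1 fell by 0.48.

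**Figure D4:**
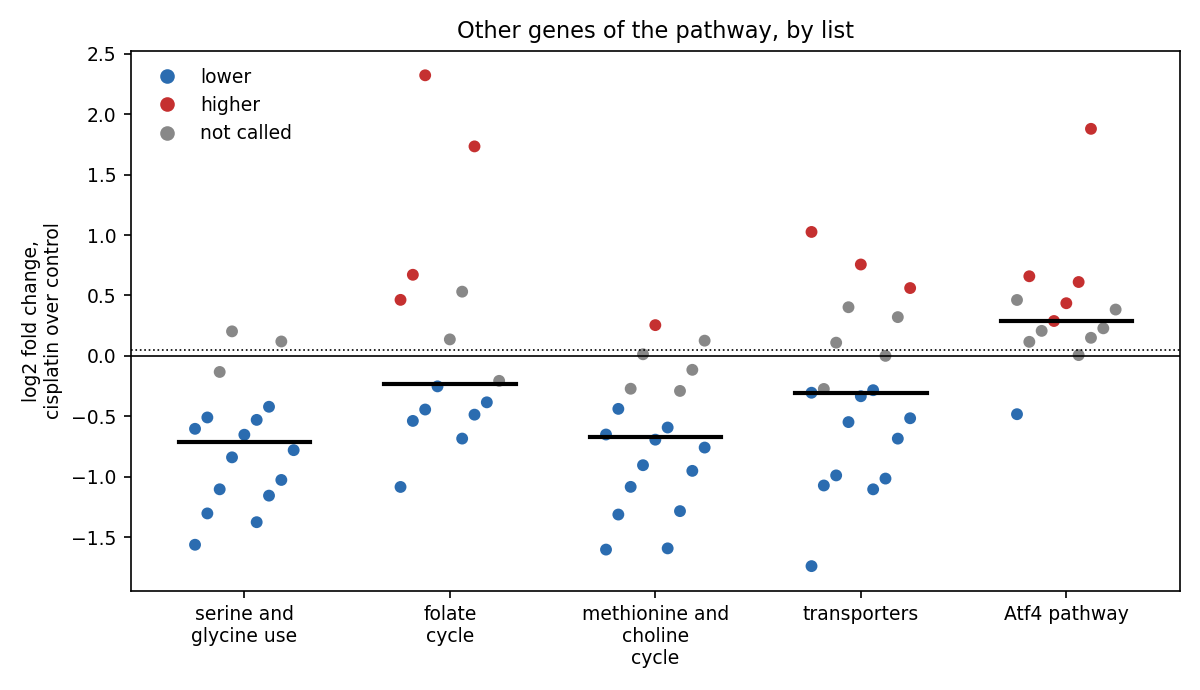
Fitted log2 fold change (cisplatin over control) of every tested gene in the 5 lists, coloured by the call, with the list's median as a bar and the median of all tested genes (0.05) as a dotted line. The lists of serine and glycine use and of the methionine and choline cycle lie mostly below 0, with medians of -0.72 and -0.67. The folate cycle list is split, with a median of -0.23. Scaled by library totals, the folate cycle list had more genes called higher than lower, 6 against 1.

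The split between lower and higher calls depended on the scaling. With plain library totals the median over the whole table moved to 0.48, and 1375 genes were called lower and 8508 higher, against 3578 and 3841 with TMM factors. With upper-quartile factors the median was 0.14 and the counts 2890 and 4774. Under library totals Psat1 was at -0.03 (adjusted p = 0.811, edgeR), while Shmt1 and Mthfd2 were called higher at 0.65 and 0.62, near that median. Shmt2, Mthfd1 and Amt stayed lower at -0.93, -0.22 and -0.23, and Phgdh, Gldc, Psph and Bhmt stayed higher at 2.08, 1.26, 0.85 and 1.40. Fold changes elsewhere in the text are those with TMM factors.

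In the remaining cell type lists calls went either way, beside 22.8% lower and 24.5% higher among all tested genes. Of the 5 endothelial markers 3 were called lower (Kdr, Tek and Emcn, -0.73, -0.47 and -0.47), of the 5 thick ascending limb markers 2 lower and 2 higher, of the 8 distal and collecting duct markers 2 lower and 4 higher, and of the 5 podocyte markers 1 higher (Wt1, 1.23). Of 5 T cell markers 3 were tested and Cd8a was called higher (1.19). Of 4 adrenal markers 1 was tested and not called, and Cyp11b2, which defines the outer adrenal cortex, had no count in any library. Pairs that matched no gene made up 4.63% to 4.86% of all pairs in control and 6.09% to 9.32% in cisplatin libraries, the most in cisplatin library 1. Without that library 4 members were called lower and 4 higher, as with it.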

How the data were processed

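Per the labels and the study's methods, stranded total RNA libraries were sequenced as read pairs, trimmed with Cutadapt, aligned to mm39 (GRCm39) and counted with STAR. STAR's settings and the annotation used for counting are not stated in these sources. The authors deposited raw counts per gene for each library without normalization. Counts of the transcript's strand were used, which held 96.7% to 97.2% of the stranded counts. Unmapped pairs made up 2.72% to 3.57% and multimapped pairs 11.5% to 12.9%, both left out.

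Genes were tested with edgeR 4.0.16 (R 4.3.3, filterByExpr with a minimum count of 10 and a minimum total of 15, TMM) without covariates, and the code was tested on simulated data. The SE is the log2 fold change divided by the square root of F. Alternatives were DESeq2 1.42.0, limma-voom (limma 3.58.1), other scalings and filters, unstranded counts, a replicate block, leaving out each library, and stricter thresholds. Symbols, lengths and promoters came from the GENCODE annotation of GRCm39. All 177 listed genes were found. Named are the members, fixed partners and for each list and direction, the genes called with the lowest adjusted p, up to 4. Some genes that this rule names are not reported here. Members and lists (proximal tubule, liver, cycling cells, macrophage, T cell, fibroblast, endothelium, thick ascending limb, distal and collecting duct, podocyte, adrenal, and 5 pathway lists) were chosen with earlier results of these data known. Small RNA and Ago2 libraries were not analysed here.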

Additional observations from a re-analysis of the deposited data

How the results depend on the processing

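Over the 10 genes under 18 alternatives, 158 results kept their direction and their side of the threshold, 20 lost the call and 2 gained it, and none reversed. Phgdh and Shmt2 were called under all 18. Library totals gave 1375 tested genes lower and 8508 higher. Against a fold change of 1.5, 1114 were lower and 1396 higher, with 1 member lower (Shmt2) and 1 higher (Phgdh). With an adjusted p under 0.01, 2 members were higher. In the pathway lists the 1.5-fold test called 7 genes of serine and glycine use lower (13 without it), 7 of the methionine and choline cycle (12), 5 transporters (11) and 1 of the folate cycle (7), and it called 2 folate cycle genes (4), 1 transporter (3) and 1 Atf4 pathway gene (5) higher. The stricter p gave 4 folate cycle genes lower, and 1 transporter and 2 Atf4 pathway genes higher. Leaving out each library in turn gave 2 to 4 members called higher.

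The main fit did not pair the libraries by their replicate numbers. Same-numbered libraries deviated together with correlations of 0.1333, 0.1417 and 0.09973, and the other pairs ran from -0.1261 to -0.02593. Each library thus correlated best with its own number. The deviations were taken from the mean of a group's 3 libraries, so positive values in some pairs force negative ones in others. Whether the libraries were paired was not tested. With the replicate block 3796 tested genes were lower and 4087 higher, and 4 members were called each way. For the ratios only the strand, the replicate block and left-out libraries apply, since scaling cancels within a library. With differences between same-numbered libraries, an exact test that flips their signs gave p = 0.25 for each of the 3 tested ratios. Bhmt and Mthfd2 had the fewest counts of the 10, with 29 to 165 and 45 to 99 a library.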
